A study of Mus musculus with 8 samples.

Results

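The genes described here encode the proteins of the mitochondrial ribosome. They were taken as the rows of the count table whose Ensembl ID carries, in GENCODE M21 on mm10, a protein-coding symbol of Mrpl or Mrps followed by a digit. The rule found 78 of the 49315 gene IDs in the table, 49 named for the large subunit (Mrpl) and 29 for the small subunit (Mrps), spread over 17 chromosomes. Expression was measured by bulk RNA sequencing of the femoral shaft of male mice aged 24 weeks and labelled C57BL6, 4 homozygous for a deletion of Girk3 (Girk3-/-, KO) and 4 wild-type (WT). Girk3, encoded by Kcnj9, forms part of potassium channels that G proteins open. The labels neither limit the deletion to a cell type nor say which part of the gene was removed. The shaft was flushed of marrow before RNA extraction, so the libraries hold RNA of every cell that stayed with the bone, and fewer cells of a type and less RNA per cell cannot be told apart.

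The mitochondrial ribosome translates the 13 proteins encoded by mitochondrial DNA, all of them parts of the respiratory chain or of ATP synthase. Its ribosomal RNAs come from mitochondrial DNA, whereas its proteins are encoded in the nucleus, made on cytosolic ribosomes and imported. The small subunit binds the messenger RNA and reads its codons, and the large subunit joins amino acids and passes the growing chain toward the inner membrane. In bone, osteoclasts are rich in mitochondria and osteoblasts draw on both glycolysis and respiration. Skeletal muscle, which can adhere to a dissected shaft, is rich in mitochondria as well.

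The 8 libraries held between 30087749 and 36553713 counts, and every mitochondrial ribosomal protein gene had at least 53 counts in each of them, so all 78 passed the low-count filter, and none through 1 group alone. Kcnj9 had 0, 8, 4 and 7 counts in the KO libraries and 7, 6, 6 and 23 counts in the WT libraries, too few to check the genotype with the deleted part unknown. On the first principal component (33.5% of the variance) KO replicate 4 lay farthest to one side, at 60.5, and WT replicate 4 farthest to the other, at -53.5. The 15 skeletal muscle markers summed to between 118276 and 195986 CPM (counts scaled to library size, with TMM factors) in KO bones and between 75052 and 138911 CPM in WT bones, with the highest sum in KO replicate 4 and the lowest in WT replicate 4. The 14 osteoblast and osteocyte markers summed to between 10250 and 18591 CPM in KO bones and between 9238 and 22208 CPM in WT bones. The corresponding ranges were 6216 to 15388 CPM in KO bones and 6159 to 16628 CPM in WT bones for 16 markers of marrow blood cells, and 323.9 to 818.7 CPM in KO bones and 257.5 to 352.9 CPM in WT bones for 6 adipocyte markers. None of these markers was at 0 in all libraries, Col1a1 among them, which marks the bone-forming cells that the tissue label names.

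Transcripts of mitochondrial ribosomal proteins were more abundant in KO than in WT bones as a group, 1.32-fold at the median, and no single gene passed the adjusted threshold in edgeR. All 78 had a positive log2 fold change in the edgeR comparison of KO over WT, against 48.6% of the 17450 genes tested. Under other settings between 72 and 78 were positive, with 74 when library totals replaced the TMM scaling. The median log2 fold change was 0.40, beside a median of -0.01 over all genes tested. The middle 50% of members lay between 0.31 and 0.51, with the extremes at 0.03 and 0.72. Short genes tended to have higher log2 fold changes over the whole table. The member median was 0.28 with the trend of exon length removed, and 0.25 with that of principal transcript length removed. Without adjustment 62 members were higher in KO bones at p under 0.05 (9.59% of all genes) and 0 were lower (8.59% of all genes). After Benjamini-Hochberg adjustment over all genes 0 members passed 0.05 in edgeR, where 2 genes of the whole table did (0.0115%), and the lowest adjusted p of a member was 0.0714. DESeq2 called 37 members higher (3.90% of the genes it tested) and limma-voom called 25 higher (2.41%). Neither called a member lower.

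The summed level of the 78 genes was 4297, 3449, 3703 and 3911 CPM in the KO libraries, against 2802, 2889, 3069 and 2615 CPM in the WT libraries. The lowest KO library lay above the highest WT library, and the means were 3840 ± 358 CPM in KO bones and 2844 ± 189 CPM in WT bones (SD, n = 4 each). As a share of all counts, with no TMM scaling, the genes took 0.432, 0.363, 0.365 and 0.325% in the KO libraries, against 0.276, 0.289, 0.302 and 0.308% in the WT libraries. These shares did not overlap either, although KO replicate 4 (0.325%) and WT replicate 4 (0.308%) lay close. For 50 members every KO library exceeded every WT library, which held for 7.33% of all genes tested. KO replicate 1 was the highest of the 8 libraries for 52 members and KO replicate 4 for 20, whereas WT replicate 4 was the lowest for 45 and WT replicate 1 for 18. Without KO replicate 4 and WT replicate 4 the median was 0.36, 74 members were positive, 52 were higher at unadjusted p under 0.05, and edgeR called 11 members higher (1.61% of genes). With the muscle marker level as a covariate the median was 0.35 and edgeR called 12 members higher (2.37% of genes). With the marrow marker level as a covariate the median was 0.40 and 42 members were called higher (4.72% of genes), and with no low-count filter 3 were (0.171% of genes).

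**Figure D1:**
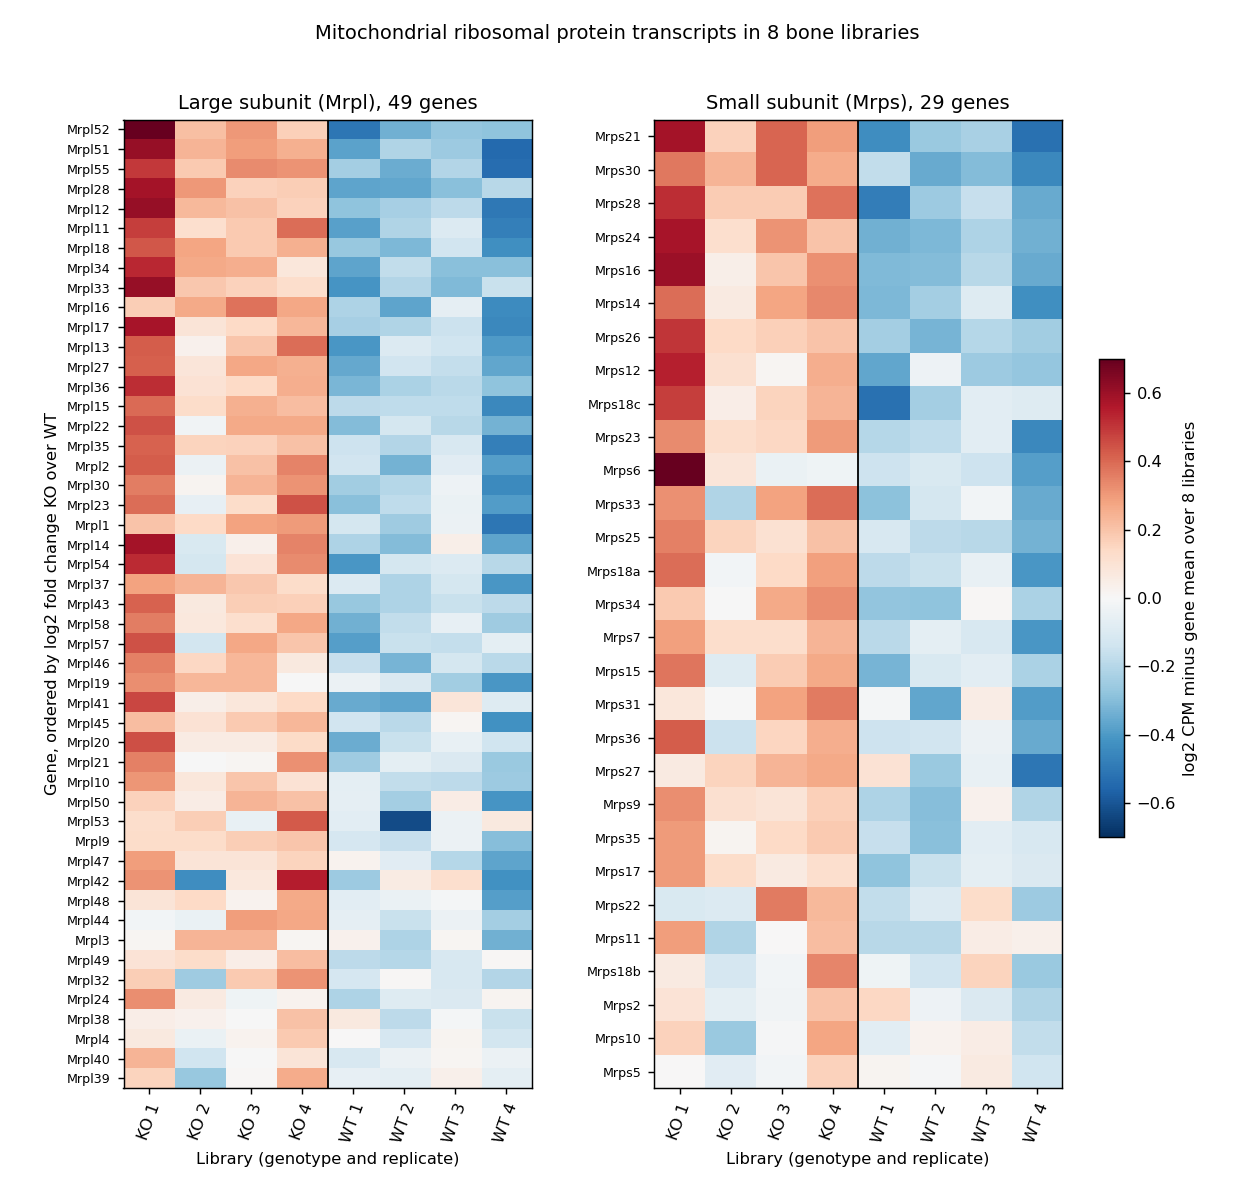
Level of each of the 78 genes in each library, as log2 CPM minus the mean of that gene over the 8 libraries, with KO libraries left of the line and WT libraries right of it; genes of each subunit are ordered by log2 fold change and the colour scale ends at ±0.7. KO columns are mostly red and WT columns mostly blue in both panels, most strongly in KO replicate 1, while the genes at the foot of each panel (Mrpl39, Mrps5) show little difference.

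The 12 members with the smallest p were divided between the subunits, 7 named Mrpl and 5 named Mrps, and each had adjusted p between 0.0714 and 0.0786 in edgeR. Mrps30 (chromosome 13, 118378381 to 118387252, minus strand) ranked first. Despite its name its protein sits in the large subunit in structures of the mammalian mitochondrial ribosome. Its level was 27.9, 25.5, 28.6 and 25.9 CPM in KO bones, against 19.2, 16.9, 17.5 and 15.8 CPM in WT bones, a log2 fold change of 0.64 ± 0.11 (SE). All KO libraries lay well above all WT libraries. Mrpl55, a large subunit protein with no bacterial counterpart (chromosome 11, 59202486 to 59206134, plus strand), had 50.1, 40.3, 44.7 and 44.1 CPM in KO bones, against 30.1, 27.9, 30.8 and 24.5 CPM in WT bones, a log2 fold change of 0.66 ± 0.11. All its KO libraries lay above all its WT libraries as well. Mrps21 (chromosome 3, 95862634 to 95871519, minus strand) is the counterpart of bacterial protein S21 and had the highest log2 fold change of all members, 0.72 ± 0.13. It reached 132, 98.5, 117 and 108 CPM in KO bones, against 65.4, 73.8, 75.4 and 61.5 CPM in WT bones, with no overlap.

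Mrps28 had 67.2, 53.2, 53.3 and 61.2 CPM in KO bones, against 33.7, 39.4, 42.0 and 36.9 CPM in WT bones (log2 fold change 0.63 ± 0.12). Mrpl52, another protein specific to the mitochondrial large subunit, had 64.3, 45.4, 48.5 and 44.1 CPM in KO bones, against 27.6, 31.1, 32.5 and 32.3 CPM in WT bones (0.71 ± 0.14). Both were free of overlap, and KO replicate 1 was the highest library for both. Mrps24 averaged 63.7 ± 9.19 CPM in KO bones and 41.7 ± 1.73 CPM in WT bones, and Mrps26 averaged 45.4 ± 5.56 CPM in KO bones and 31.9 ± 1.17 CPM in WT bones (SD, n = 4 each). The small spread of these WT libraries contrasted with a wider one among the KO libraries. The remaining 5 were large subunit genes: Mrpl51, Mrpl18, and the counterparts of bacterial proteins L28, L34 and L16 (Mrpl28, Mrpl34 and Mrpl16). Mrpl51 was the most abundant of them by count, at 232, 179, 186 and 180 CPM in KO bones, against 117, 131, 127 and 104 CPM in WT bones (0.70 ± 0.14), again with KO replicate 1 apart at the top. Mrpl18, whose human protein has been tied to the import of 5S ribosomal RNA, had 115, 103, 96.5 and 101 CPM in KO bones, against 70.9, 68.5, 77.6 and 63.3 CPM in WT bones (0.57 ± 0.11). Mrpl28 averaged 71.4 ± 10.1 CPM in KO bones and 46.5 ± 2.70 CPM in WT bones, Mrpl34 averaged 46.8 ± 6.06 CPM in KO bones and 31.5 ± 1.84 CPM in WT bones, and Mrpl16 averaged 40.7 ± 2.39 CPM in KO bones and 28.0 ± 3.29 CPM in WT bones. None of the 12, which were chosen by p, had a KO library at or below a WT library. This held for 50 of the 78 members and 7.33% of all genes.

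**Figure D2:**
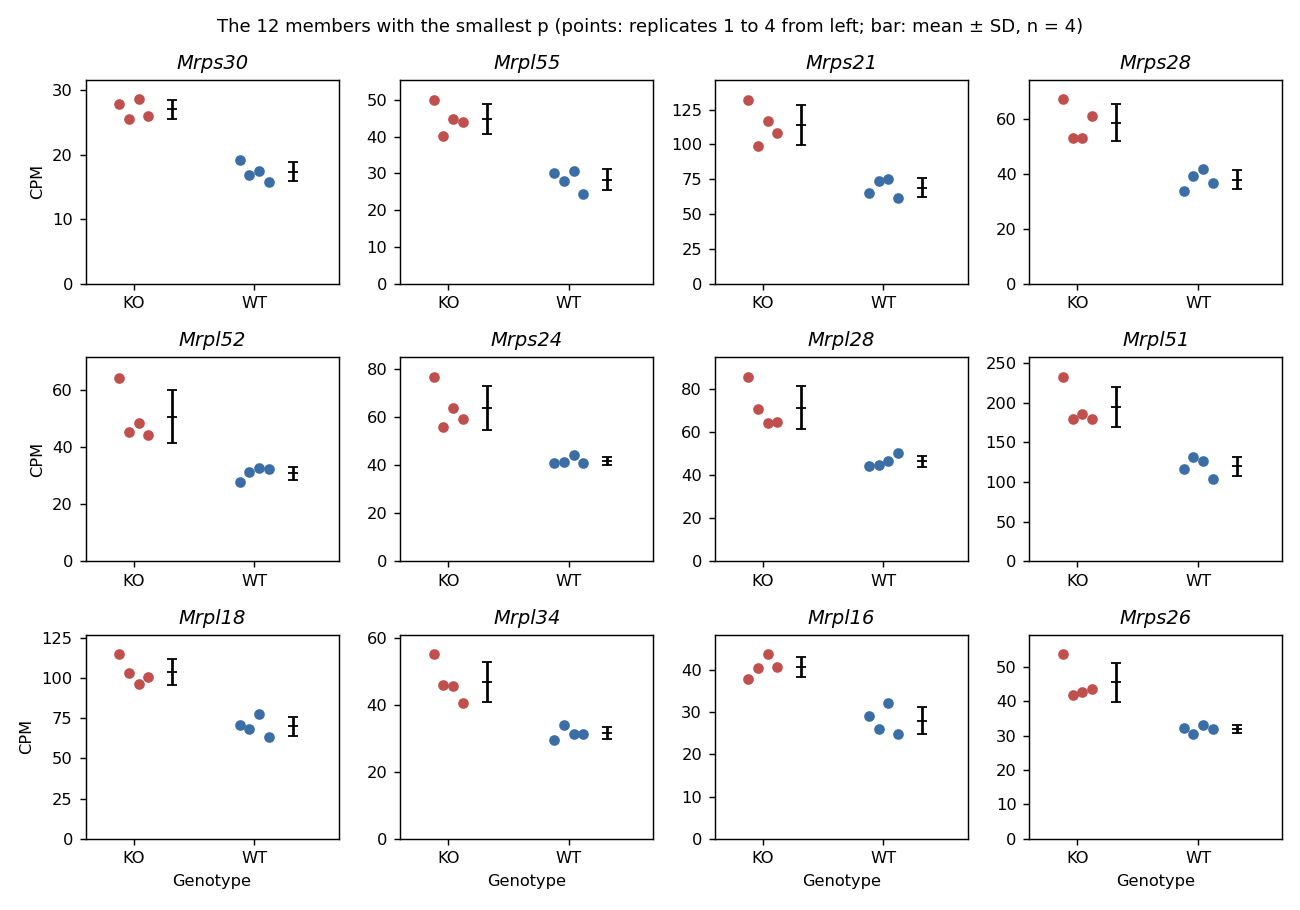
CPM of the 12 members with the smallest p, one panel per gene with its own axis from 0; points are libraries (KO left, WT right, replicates 1 to 4 from left to right within a group) and bars give the mean ± SD of 4 libraries. In every panel all KO points lie above all WT points, and for Mrpl51 and Mrps26 KO replicate 1 stands above the other KO libraries.

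Because the members lay on the same side of WT, their promoters were compared. RefSeq promoter windows on GRCm38.p6 (the build of mm10), each with 250 bases before the start and 50 from it, matched 69 of the 78 members by symbol, 75 windows in all. The windows are shown for the 4 members with the smallest p that have one, because these genes stand first in the comparison above. Each is written in the sense of the gene; capitals mark a match to any of 3 short motifs, the core letters bound by NRF1 (GCGCATGC), by ETS factors such as GABPA (CCGGAAGT) and by YY1 (ATGGCGGC), searched on both strands. These factors are known regulators of nuclear genes for mitochondrial proteins.
Mrps30, chr13:118387203-118387502, minus strand: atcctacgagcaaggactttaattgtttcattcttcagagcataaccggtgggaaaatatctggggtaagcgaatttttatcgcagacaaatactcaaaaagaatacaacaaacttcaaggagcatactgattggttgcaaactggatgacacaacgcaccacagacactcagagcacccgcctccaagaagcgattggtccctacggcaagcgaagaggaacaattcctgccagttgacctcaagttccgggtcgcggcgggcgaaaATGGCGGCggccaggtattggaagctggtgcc
Mrpl55, chr11:59202236-59202535, plus strand: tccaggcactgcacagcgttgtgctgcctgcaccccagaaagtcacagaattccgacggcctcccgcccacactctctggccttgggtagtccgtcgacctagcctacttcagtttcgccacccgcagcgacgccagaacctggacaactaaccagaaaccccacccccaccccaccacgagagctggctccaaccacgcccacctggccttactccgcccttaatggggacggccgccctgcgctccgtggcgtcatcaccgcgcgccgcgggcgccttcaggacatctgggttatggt
Mrps21, chr3:95871465-95871764, minus strand: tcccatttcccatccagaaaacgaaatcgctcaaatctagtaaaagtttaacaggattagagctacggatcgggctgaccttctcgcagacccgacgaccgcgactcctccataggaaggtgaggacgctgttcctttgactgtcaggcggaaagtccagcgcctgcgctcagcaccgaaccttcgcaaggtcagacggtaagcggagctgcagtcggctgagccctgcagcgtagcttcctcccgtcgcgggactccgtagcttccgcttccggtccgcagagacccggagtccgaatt
Mrpl52, chr14:54426659-54426958, plus strand: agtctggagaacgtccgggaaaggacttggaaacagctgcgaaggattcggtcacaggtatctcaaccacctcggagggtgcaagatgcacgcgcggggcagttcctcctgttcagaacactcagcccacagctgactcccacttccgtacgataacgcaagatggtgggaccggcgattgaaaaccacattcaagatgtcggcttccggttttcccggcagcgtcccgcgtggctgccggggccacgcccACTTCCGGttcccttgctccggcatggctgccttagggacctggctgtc

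The window of Mrps30 holds the YY1 letters from base 19 after the start. That of Mrpl52 holds the ETS letters on the opposite strand, read as ACTTCCGG, from base 2, and the windows of Mrpl55 and Mrps21 hold none of the 3. Over all 75 member windows the NRF1 letters occurred in 8 (10.7%), against 4.50% of the 15481 windows of genes tested and 2.71% of all 32851 windows. The ETS letters occurred in 12 (16.0%), against 6.91% of windows of genes tested and 3.89% of all windows, and the YY1 letters in 12 (16.0%), against 4.04% and 2.24%. At least 1 of the 3 was present in 27 member windows (36.0%), against 14.2% of windows of genes tested and 8.23% of all windows, and matches of different motifs shared bases in 0 member windows. The median GC content was 58.7% in member windows and 60.0% in windows of genes tested. The fold change did not go with the letters: the 27 members with a match had a median log2 fold change of 0.40 and the 42 with a window and no match one of 0.41. A match is a run of letters and not a measured binding site. The YY1 letters begin with ATG, so a match after the start, as in Mrps30, may be the first codons of the protein. This was not checked.

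The medians of the large and the small subunit lay close together. The 49 large subunit genes had a median log2 fold change of 0.41 (middle 50% from 0.31 to 0.51), with 39 at unadjusted p under 0.05 and 33 free of overlap. The 29 small subunit genes had a median of 0.39 (middle 50% from 0.32 to 0.47), with 23 at unadjusted p under 0.05 and 17 free of overlap. DESeq2 called 26 large and 11 small subunit genes, and limma-voom called 18 large and 7 small subunit genes. Over all genes 9.59% were higher in KO bones at unadjusted p under 0.05, and 7.33% had every KO above every WT library. DESeq2 called 3.90% of its genes higher and limma-voom 2.41%. Summed over the subunit, the large subunit genes stood at 2642 ± 247 CPM in KO bones and 1951 ± 131 CPM in WT bones, and the small subunit genes at 1198 ± 112 CPM in KO bones and 892.5 ± 57.5 CPM in WT bones (SD, n = 4 each). The mean log2 CPM of large minus small subunit genes was 0.317, 0.345, 0.303 and 0.277 in KO bones, against 0.289, 0.292, 0.271 and 0.294 in WT bones. These differences overlapped, with KO replicate 4 below 3 of the WT libraries, and averaged 0.311 ± 0.028 in KO bones and 0.287 ± 0.010 in WT bones. With Mrps30 and Mrps18a, which both lie in the large subunit in structures, counted there, its median stayed at 0.41, and without them and Mrps36 the small subunit median was 0.38.

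Within the large subunit, the genes for the catalytic region and for the stalk that recruits translation factors were considered by role. Mrpl2, of the region that forms peptide bonds, had 91.9, 66.6, 79.0 and 87.4 CPM in KO bones, against 62.4, 54.6, 64.9 and 52.5 CPM in WT bones (log2 fold change 0.47 ± 0.13, adjusted p 0.118), with KO replicate 2 just above WT replicate 3. Mrpl3, which also reaches toward that region, had 43.2, 50.6, 50.5 and 43.3 CPM in KO bones, against 43.8, 36.9, 43.3 and 33.9 CPM in WT bones. Its groups overlapped, and its log2 fold change of 0.25 ± 0.12 had an adjusted p of 0.304. With the exon length trend removed from each library, since short genes tended to have higher log2 fold changes, Mrpl2 and Mrpl3 were at 0.25 and 0.35. The stalk was represented by 3 genes. Mrpl12, whose protein contacts elongation factors, had 175, 134, 132 and 128 CPM in KO bones, against 94.3, 97.7, 101 and 81.0 CPM in WT bones (0.61 ± 0.14, adjusted p 0.0853). Mrpl11 of the stalk base had 54.5, 42.2, 44.2 and 51.0 CPM in KO bones, against 29.9, 33.6, 36.4 and 27.9 CPM in WT bones (0.59 ± 0.13, adjusted p 0.0786). Mrpl10, which anchors the copies of the Mrpl12 protein, averaged 40.4 ± 2.93 CPM in KO bones and 31.9 ± 1.67 CPM in WT bones (0.34 ± 0.10, adjusted p 0.123). All 3 stalk genes were free of overlap, as were 50 of the 78 members (7.33% of all genes). With the length trend removed the log2 fold changes of Mrpl12, Mrpl11 and Mrpl10 were 0.40, 0.54 and 0.16.

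Mrpl45, which holds the ribosome to the inner membrane at the exit tunnel, had 55.1, 50.9, 54.0 and 55.8 CPM in KO bones, against 43.3, 41.7, 48.0 and 35.4 CPM in WT bones (0.36 ± 0.11). Mrpl58, also known as Ict1, encodes a peptidyl-tRNA hydrolase that frees stalled chains. It averaged 35.4 ± 3.22 CPM in KO bones and 26.6 ± 2.21 CPM in WT bones (0.41 ± 0.11). Both were free of overlap. Mrpl44, whose protein has the fold of RNase III, averaged 27.0 ± 3.39 CPM in KO bones and 22.6 ± 1.40 CPM in WT bones, with overlap (0.26 ± 0.12, adjusted p 0.285). Mrpl14, at the face that meets the small subunit, had 88.2, 54.7, 60.4 and 74.9 CPM in KO bones, against 50.7, 47.7, 60.7 and 45.6 CPM in WT bones. Here WT replicate 3 lay above KO replicates 2 and 3, and the log2 fold change of 0.44 ± 0.16 had an adjusted p of 0.196. With the length trend removed, Mrpl45, Mrpl58, Mrpl44 and Mrpl14 were at 0.27, 0.38, 0.08 and 0.20.

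Small subunit genes were likewise taken by role. Mrps12, whose protein lines the decoding site, had 46.6, 34.5, 32.2 and 38.0 CPM in KO bones, against 24.8, 31.1, 26.8 and 26.5 CPM in WT bones (0.47 ± 0.14, adjusted p 0.123). Mrps7 of the head averaged 81.7 ± 4.74 CPM in KO bones and 62.6 ± 6.33 CPM in WT bones (0.38 ± 0.11, adjusted p 0.125), and Mrps16, 1 of the small subunit genes mutated in human respiratory chain disease, averaged 38.4 ± 6.46 CPM in KO bones and 25.5 ± 1.20 CPM in WT bones (0.59 ± 0.13, adjusted p 0.0787). These genes had no overlap between groups. Mrps22, another such disease gene, had 13.1, 13.2, 18.1 and 16.5 CPM in KO bones, against 12.5, 13.2, 15.4 and 11.8 CPM in WT bones, and its groups overlapped (0.21 ± 0.15, adjusted p 0.506). Mrps27, an RNA-binding protein with pentatricopeptide repeats, had 22.1, 23.6, 25.0 and 25.5 CPM in KO bones, against 22.7, 17.7, 20.4 and 14.9 CPM in WT bones, where WT replicate 1 lay above KO replicate 1 (0.35 ± 0.14, adjusted p 0.223). With the length trend removed, Mrps12, Mrps7, Mrps16, Mrps22 and Mrps27 were at 0.24, 0.25, 0.53, 0.21 and 0.22.

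Bacterial protein S18 has 3 mammalian mitochondrial paralogues. Mrps18a, the large subunit form, averaged 55.3 ± 6.77 CPM in KO bones and 41.9 ± 4.26 CPM in WT bones (0.40 ± 0.12, adjusted p 0.139). Mrps18c averaged 32.5 ± 4.36 CPM in KO bones and 23.6 ± 3.23 CPM in WT bones (0.46 ± 0.14, adjusted p 0.131), and neither of these overlapped. Mrps18b had 16.4, 14.5, 15.5 and 19.9 CPM in KO bones, against 15.4, 14.3, 17.5 and 13.1 CPM in WT bones, with overlap (0.14 ± 0.14, adjusted p 0.666). With the exon length trend removed, Mrps18a, Mrps18c and Mrps18b were at 0.39, 0.24 and 0.00, and with the principal transcript length trend removed Mrps18a was at 0.15. Whether the paralogues differ from each other was not tested. Mrps36, now known as a subunit of the 2-oxoglutarate dehydrogenase complex rather than of the ribosome, averaged 38.5 ± 6.22 CPM in KO bones and 30.3 ± 2.64 CPM in WT bones, with overlap (0.35 ± 0.13, adjusted p 0.213, and 0.12 with the exon length trend removed). Leaving it out gave a median of 0.41 over the other members.

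At the low end, 10 members had log2 fold changes under 0.2. Mrps5, the counterpart of bacterial protein S5, had the lowest, 0.03 ± 0.10, with 38.4, 36.2, 37.7 and 42.8 CPM in KO bones, against 38.8, 38.0, 40.0 and 34.8 CPM in WT bones. Its libraries were interleaved, with both extremes at replicate 4. Mrpl39 had 26.8, 20.0, 24.2 and 28.8 CPM in KO bones, against 23.1, 22.9, 24.6 and 22.9 CPM in WT bones (0.09 ± 0.12). Mrps10 averaged 33.5 ± 5.24 CPM in KO bones and 31.3 ± 2.18 CPM in WT bones, Mrpl40 averaged 18.1 ± 1.98 CPM in KO bones and 16.9 ± 0.590 CPM in WT bones, and Mrps2 averaged 18.7 ± 1.56 CPM in KO bones and 17.5 ± 1.80 CPM in WT bones. The sign of these 5 genes and of Mrps18b was not stable, and each turned negative under at least 1 other setting. By contrast 21 members had a log2 fold change of at least 0.5. Within a group the libraries varied by a median coefficient of variation of 11.8% over members in KO bones and 9.30% in WT bones, with the highest at 30.1% for Mrps6 in KO bones.

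Levels of different genes were compared per kilobase of annotated exon, over all 8 libraries. They ran from 2.30 CPM per kilobase for Mrps35 to 124 CPM per kilobase for Mrps21, with a median of 14.7. Mrps21 was followed by Mrpl12 at 77.0, Mrpl34 at 64.5 and Mrpl14 at 63.6 CPM per kilobase, and Mrpl53 was next to last at 3.23 CPM per kilobase. The order depends on the length used. Per kilobase of the principal transcript the highest was Mrpl42 at 235 CPM per kilobase, a gene singled out after its values were seen, and the lowest was Mrpl53 at 3.67. Mrpl42 was also among the genes with wide spread, at 190, 113, 161 and 224 CPM in KO bones, against 128, 159, 166 and 114 CPM in WT bones, where KO replicate 2 was the lowest library of all. Mrpl53, the scarcest by count, had 2.73, 2.82, 2.42 and 3.37 CPM in KO bones, against 2.38, 1.62, 2.43 and 2.63 CPM in WT bones (log2 fold change 0.32 ± 0.21), and its groups overlapped. Its level is uncertain, because it shares 88% of its exon bases with Gm42688 on the same strand. How reads of such shared bases were counted is not given.

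Exon length bears on these values because fold changes went with it across the whole table. Over 17414 genes with a length, the median log2 fold change declined from 0.21 in the shortest of 10 equal groups of genes to -0.19 in the longest. Mitochondrial ribosomal protein genes are short, with a median exon length of 2394 bases against 3856 bases for all genes tested. Yet 76 of the 78 lay above the median of all genes in their own length group, by 0.30 at the median, and 70 did so by principal transcript length, by 0.25. The 55 members in the shorter 5 groups had a median of 0.40, beside 0.11 for all genes there, and 44 of the 55 were higher at unadjusted p under 0.05, as were 15.0% of all genes of that length. The 23 members in the longer 5 groups had a median of 0.41, beside -0.10 for all genes there, and 18 of the 23 were higher at unadjusted p under 0.05, as were 4.16% of all genes of that length. Across members the Spearman correlation of fold change with exon length was -0.25, against -0.33 across all genes, and with level per kilobase of exon it was 0.44. These are descriptions over 78 genes measured in the same 8 libraries, and level per kilobase and exon length were themselves related (-0.74).

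The longest and shortest genes illustrate this. Mrps35 (8631 bases of exon) had 24.2, 20.0, 21.7 and 22.4 CPM in KO bones, against 17.6, 16.1, 18.7 and 18.2 CPM in WT bones, a log2 fold change of 0.32 ± 0.11 where the median of its length group was -0.12. Mrpl15 (8487 bases) had 75.3, 62.7, 68.0 and 66.5 CPM in KO bones, against 50.5, 50.6, 50.6 and 41.8 CPM in WT bones (0.49 ± 0.11). Mrpl48 (8152 bases) had 54.8, 56.6, 52.3 and 61.9 CPM in KO bones, against 48.9, 49.8, 50.9 and 39.4 CPM in WT bones (0.26 ± 0.11). In all 3 long genes the KO libraries lay above the WT libraries. The 3 shortest, Mrpl34 (607 bases), Mrps21 (739 bases) and Mrps28 (783 bases), had log2 fold changes of 0.57, 0.72 and 0.63, where the median of their length group was 0.21. With the length trend of each library removed, their log2 fold changes were 0.34, 0.49 and 0.40, while those of Mrps35, Mrpl15 and Mrpl48 were 0.46, 0.64 and 0.39.

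Over all members, removal of the exon length trend gave a median log2 fold change of 0.28, with 77 positive and 45 higher at unadjusted p under 0.05 (8.01% of all genes). The large subunit median was then 0.29 and the small subunit median 0.25. Removal of the trend with principal transcript length, an alternative added after the data were seen, gave a median of 0.25, with 72 positive and 39 higher at unadjusted p under 0.05 (6.96% of all genes). Under both settings edgeR called 0 members, as in the comparison without removal. Among the 12 members with the smallest p, Mrps30 (6666 bases), Mrps26 (4358 bases) and Mrpl51 (4043 bases) lie among the longer genes, and their log2 fold changes with the exon length trend removed were 0.74, 0.53 and 0.70. The other 9 of the 12 were between 0.34 and 0.50.

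**Figure D3:**
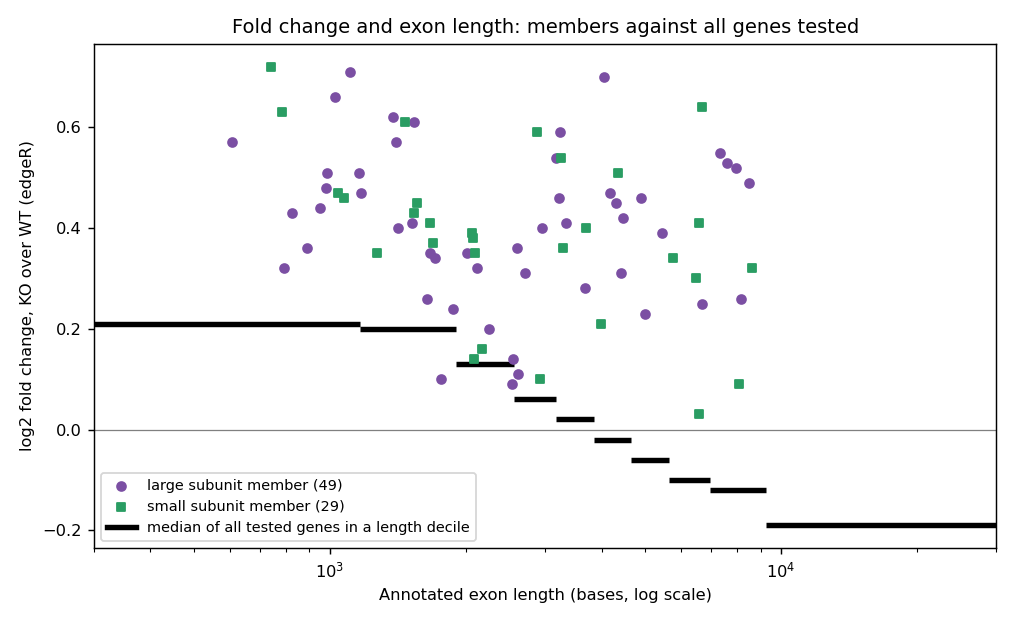
Log2 fold change of KO over WT (edgeR) against annotated exon length in bases, on a log axis, for the 49 large subunit genes (circles) and 29 small subunit genes (squares); black bars give the median of all genes tested in each of 10 groups of exon length. Of the 78 members 76 lie above the bar of their own group, and the members beyond 3857 bases reach as high as most of the short ones although the bars there lie below 0.

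Some members overlap neighbouring genes, and the strand setting of the counting is not given in the sources used here, so reads of such pairs cannot be told apart. Of the 78 members 33 share exon bases with another annotated gene and 9 share at least 20% of theirs. Mrpl53 shares 88.0% with Gm42688 on the same strand, Mrps25 shares 69.8% with Nr2c2 and Mrps34 shares 63.4% with Mapk8ip3, both on the opposite strand, and Mrpl19 and Mrpl43 share 36.0 and 33.4% with Gcfc2 and Twnk, also on the opposite strand. Mrps34 also shares 37% with Nme3 on the same strand, in part the same bases. Nme3 averaged 0.566 ± 0.206 CPM in KO bones and 0.373 ± 0.0669 CPM in WT bones (log2 fold change 0.60 ± 0.36, adjusted p 0.415). For Mrps34 and Mrps25 the partner on the opposite strand had lower levels in KO bones while the member had higher ones. Mapk8ip3 averaged 60.2 ± 8.59 CPM in KO bones and 96.3 ± 6.59 CPM in WT bones (log2 fold change -0.68 ± 0.13, adjusted p 0.0728), whereas Mrps34 averaged 33.2 ± 3.21 CPM in KO bones and 25.4 ± 2.47 CPM in WT bones (0.39 ± 0.11, adjusted p 0.130). Nr2c2 averaged 15.2 ± 2.77 CPM in KO bones and 20.0 ± 3.04 CPM in WT bones (-0.40 ± 0.16, adjusted p 0.238), whereas Mrps25 averaged 34.1 ± 2.61 CPM in KO bones and 25.6 ± 1.60 CPM in WT bones (0.41 ± 0.10, adjusted p 0.0956). Mrpl47 shares 13.9% of its exon bases with Ndufb5, a complex I subunit that averaged 277 ± 16.7 CPM in KO bones and 164 ± 23.0 CPM in WT bones (0.75 ± 0.14), and had itself a log2 fold change of 0.31 ± 0.12. Among the members, Mrpl46 and Mrps11 lie head to head on opposite strands and share 173 bases, and their log2 fold changes were 0.40 ± 0.11 and 0.16 ± 0.14. The 69 members that share under 20% were all positive, with a median of 0.41. Reads that also match processed copies of these genes were treated in a way that is not given, so levels of members with such copies are uncertain.

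Proteins of the same particle that carry other names were examined next. All 5 such subunits were at higher levels in KO bones by their log2 fold changes (median 0.38). At unadjusted p under 0.05, 4 were higher (9.59% of all genes). Chchd1 had 79.4, 56.4, 67.8 and 70.2 CPM in KO bones, against 42.8, 51.5, 52.4 and 42.4 CPM in WT bones (0.53 ± 0.13, adjusted p 0.0965). Aurkaip1 and Gadd45gip1 had log2 fold changes of 0.39 ± 0.12 and 0.38 ± 0.12. Dap3, a small subunit protein that binds GTP, averaged 77.7 ± 3.13 CPM in KO bones and 65.0 ± 4.67 CPM in WT bones (0.26 ± 0.10, adjusted p 0.213). These 4 were free of overlap (7.33% of all genes). Ptcd3, the fifth, had a log2 fold change of 0.11 ± 0.13 with overlapping groups.

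Of 26 assembly factors, which modify the ribosomal RNAs and fit the subunits together, 24 were positive (48.6% of all genes), with a median of 0.22. At unadjusted p under 0.05, 10 were higher (9.59% of all genes). Malsu1 had a larger log2 fold change than any member. Its protein binds the maturing large subunit and keeps the small one from joining. It had 41.1, 34.5, 43.2 and 37.9 CPM in KO bones, against 20.4, 20.6, 25.1 and 17.4 CPM in WT bones, a log2 fold change of 0.91 ± 0.13 with an adjusted p of 0.0675. The libraries were far apart, with 34.5 CPM the lowest in KO bones and 25.1 CPM the highest in WT bones. Mrm2, a methyltransferase of the large ribosomal RNA, had 14.9, 11.4, 11.9 and 11.1 CPM in KO bones, against 7.78, 8.85, 8.51 and 6.95 CPM in WT bones (0.62 ± 0.15, adjusted p 0.0906). Ngrn, needed for the large ribosomal RNA, and Ndufab1, the mitochondrial acyl carrier protein, had log2 fold changes of 0.41 ± 0.10 and 0.53 ± 0.14. All 4 of these, named for their small p, were free of overlap, as were 8 of the 26 factors (7.33% of all genes).

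Of 16 translation factors 15 were positive (48.6% of all genes), with a median of 0.23. At unadjusted p under 0.05, 5 were higher (9.59% of all genes). The initiation factor Mtif3 had 19.0, 22.4, 21.2 and 22.7 CPM in KO bones, against 14.8, 15.1, 17.3 and 13.0 CPM in WT bones (0.50 ± 0.12, adjusted p 0.0926). Tsfm, which recharges the elongation factor Tufm, had 32.3, 25.3, 25.3 and 26.2 CPM in KO bones, against 19.2, 20.7, 20.4 and 20.7 CPM in WT bones (0.43 ± 0.11, adjusted p 0.102). Both were free of overlap. Guf1, a ribosome-bound GTPase, and Slirp, a stabiliser of mitochondrial messenger RNA, had log2 fold changes of 0.26 ± 0.09 and 0.45 ± 0.16. The groups overlapped for Slirp alone of these 2. Of the 16 factors 4 were free of overlap (7.33% of all genes).

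The 3 lists further from the ribosome had lower medians. Their median exon lengths were 5174, 3578 and 6284 bases, against 2394 bases for the members. With the exon length trend removed the medians were 0.28 for members and 0.29 for subunits under other symbols. They were then 0.21 for assembly factors, 0.20 for translation factors, 0.16 for tRNA charging and 0.08 for expression of mitochondrial DNA. Differences between the lists were not tested. Of 20 genes for mitochondrial tRNA charging, 14 were positive (48.6% of all genes), with a median of 0.11. At unadjusted p under 0.05, 4 were higher (9.59% of all genes): Lars2, Gatb, Yars2 and Fars2. Lars2, the leucyl-tRNA synthetase, had 101, 177, 124 and 154 CPM in KO bones, against 87.7, 88.3, 94.2 and 71.1 CPM in WT bones (0.71 ± 0.18, adjusted p 0.0999). Of 10 genes for replication and transcription of mitochondrial DNA, 6 were positive (48.6% of all genes), with a median of 0.11. At unadjusted p under 0.05, 2 were higher (9.59% of all genes). Tfam, which packs mitochondrial DNA and starts its transcription, had 49.4, 50.9, 53.5 and 53.2 CPM in KO bones, against 46.7, 37.3, 38.4 and 32.5 CPM in WT bones (0.42 ± 0.12, adjusted p 0.125), and the DNA-binding protein Ssbp1 had a log2 fold change of 0.27 ± 0.11. Of 9 regulators of nuclear genes for mitochondria 4 were positive and 5 negative, with a median of -0.06 that became 0.07 with the exon length trend removed. Among them Pprc1, a coactivator related to PGC-1, had 21.7, 29.0, 22.8 and 23.7 CPM in KO bones, against 34.5, 30.4, 31.9 and 36.2 CPM in WT bones (-0.45 ± 0.12, adjusted p 0.106). All its KO libraries lay below all WT libraries, which held for 1 of the 9 regulators and 1008 of the 17450 genes tested. Next by p were Ppargc1b at 0.32 ± 0.19, Esrra at 0.23 ± 0.14 and Myc at -0.22 ± 0.18, all with overlapping groups. The factors whose letters were searched in the promoters were at -0.12 ± 0.13 (Nrf1), -0.06 ± 0.10 (Gabpa) and 0.11 ± 0.10 (Yy1). No gene of these 6 related lists passed the adjusted threshold in edgeR. DESeq2 called higher 1 subunit under another symbol, 4 assembly factors, 2 translation factors and 1 gene for tRNA charging (3.90% of the genes it tested). It called 1 of the 9 regulators lower, as it did 393 genes of the whole table. Limma-voom called higher 5 assembly factors, 1 translation factor and 1 gene for tRNA charging (2.41% of all genes).

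**Figure D4:**
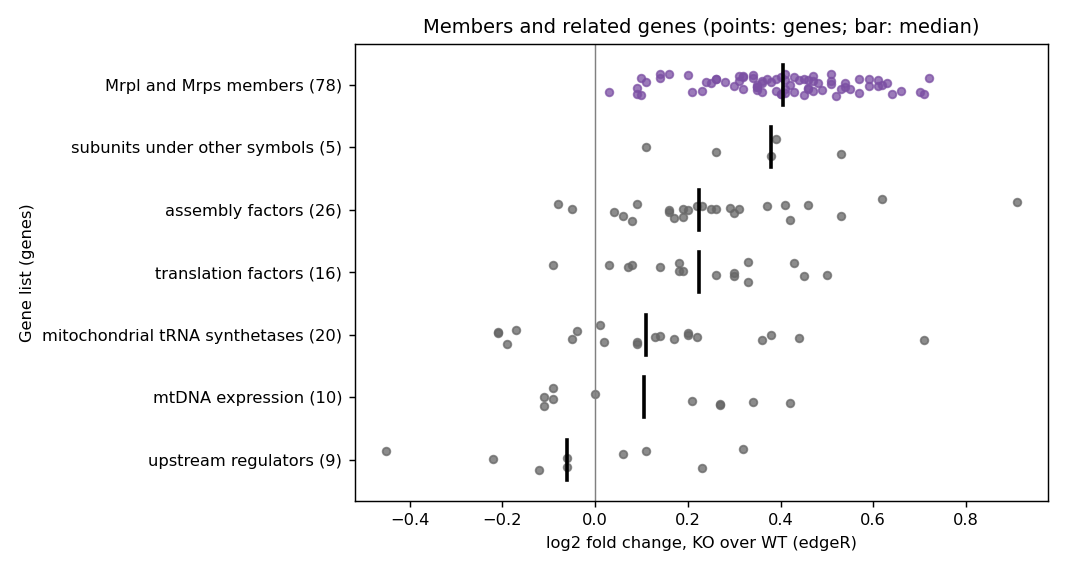
Log2 fold change of KO over WT (edgeR) for the 78 members and for 6 lists of related genes, with 1 point per gene, the number of genes in brackets and a bar at the median. The members lie wholly to the right of 0 with a median of 0.40, and the medians of the lists below run from 0.38 for subunits under other symbols to -0.06 for upstream regulators. No length trend was removed here. With the exon length trend removed these 3 medians were 0.28, 0.29 and 0.07.

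The messenger RNAs that the mitochondrial ribosome translates did not run in parallel with the transcripts of its proteins. Of the 13 protein-coding genes of mitochondrial DNA, 10 were at lower levels in KO bones, and the median log2 fold change was -0.24. At unadjusted p under 0.05, 0 of the 13 were higher and 0 lower. By adjusted p limma-voom called 1 of the 13 lower (281 of the 17450 genes tested) and DESeq2 called 0. With the exon length trend removed the median was -0.47, with 0 positive and 1 lower at unadjusted p under 0.05. Their summed level was 72645, 55186, 71605 and 139332 CPM in KO bones, against 114944, 117940, 108250 and 71553 CPM in WT bones. KO replicates 1 to 3 lay close to or below WT replicate 4, while KO replicate 4 was the highest of all, so that the groups overlapped. Complex I joins proteins made from several of these RNAs with subunits encoded in the nucleus. Genes for the latter were taken by symbol (Ndufa, Ndufb, Ndufc, Ndufs or Ndufv followed by a digit, which leaves out Ndufab1). The symbol does not check which complex a protein belongs to. By contrast these genes were all positive (37 genes, median 0.63, 32 at unadjusted p under 0.05). Their summed levels were 8557 ± 811 CPM in KO bones and 5734 ± 716 CPM in WT bones (SD, n = 4 each). Cytosolic ribosomal proteins, which share no subunit with the mitochondrial ribosome, were positive for 77 of the 79 tested, with a median of 0.42 and 44 at unadjusted p under 0.05. Over all genes 48.6% were positive and 9.59% were higher at unadjusted p under 0.05. By adjusted p edgeR called 0 of either group. DESeq2 called 31 complex I and 16 cytosolic ribosomal protein genes higher (3.90% of its genes), and limma-voom 25 and 15 (2.41%). Every KO library exceeded every WT library for 31 complex I and 25 cytosolic ribosomal protein genes (7.33% of all genes). With the exon length trend removed the medians were 0.43 for complex I subunits and 0.27 for cytosolic ribosomal proteins. At unadjusted p under 0.05, 32 and 28 were then higher (8.01% of all genes). With the principal transcript length trend removed the medians were 0.38 and 0.19, with 29 and 13 higher (6.96% of all genes). The summed level of the cytosolic ribosomal proteins was 36621, 25464, 27425 and 27344 CPM in KO bones, against 18389, 21398, 22030 and 26520 CPM in WT bones. Here WT replicate 4 lay above KO replicate 2, an overlap that the mitochondrial ribosomal proteins did not show. All of these values come from the same 8 libraries, and differences between the groups of genes were not tested.

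**Figure D5:**
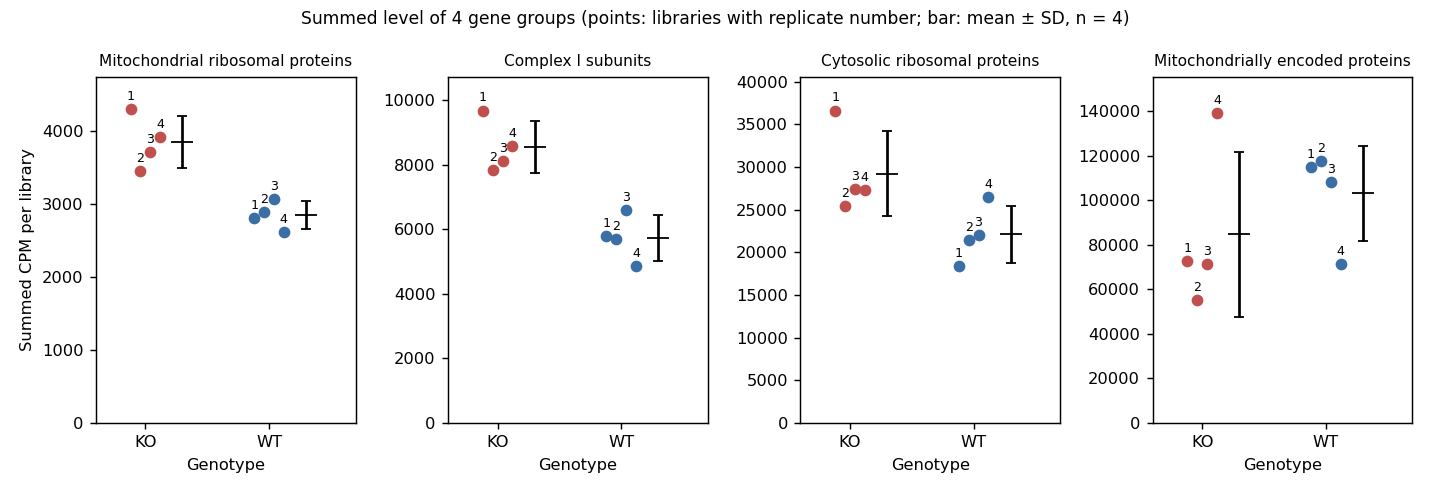
Summed CPM per library for 4 groups of genes, each panel with its own axis from 0; points are libraries with their replicate number (KO left, WT right) and bars give the mean ± SD of 4 libraries. The mitochondrial ribosomal proteins and complex I subunits show KO libraries above all WT libraries, the cytosolic ribosomal proteins overlap at WT replicate 4, and the mitochondrially encoded proteins run the other way except in KO replicate 4 and WT replicate 4.

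The marker genes of other cell types moved with these results in part, and their part in them was not tested beyond the covariate settings above. In the same comparison 12 of 15 muscle markers were positive (median 0.42), 11 of 16 marrow markers (median 0.25), 6 of 6 adipocyte markers (median 0.63) and 3 of 14 osteoblast and osteocyte markers (median -0.22). Over all genes tested 48.6% were positive. With the exon length trend removed the medians were 0.26 for muscle (14 positive) and 0.10 for marrow (9 positive). They were then 0.52 for adipocyte markers (6 positive) and -0.19 for osteoblast and osteocyte markers (3 positive), beside 0.28 for the members. Over all genes 49.9% were then positive. Summed levels of KO and WT bones overlapped for each marker list.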

How the data were processed

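The authors deposited raw counts by Ensembl gene ID for 8 libraries, 4 KO and 4 WT, with group and replicate number taken from the sample titles. Each library was read as a different mouse, since 4 mice per genotype are stated in the labels. Per the submitters' processing notes the tools were bcl2fastq 2.17, STAR 2.5.2b and featureCounts of Subread 1.5.2, with build mm10. Annotation release, strand setting and handling of reads with several matches are not stated in what was used here. Per the labels' protocols RNA was total RNA and the kit NEBNext Ultra II.

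Members and gene lists were chosen with earlier results of these data known. Symbols, exon lengths (union of exons, and the longest APPRIS principal transcript) and overlaps came from GENCODE M21, which lacks 259 of the 49315 IDs. KO was compared with WT by edgeR 4.0.16 in R 4.3.3 (robust quasi-likelihood test, TMM, filterByExpr, group as the only term), fitted to all genes, with Benjamini-Hochberg adjustment over the 17450 tested and a threshold of 0.05. Log2 CPM used a prior count of 2. DESeq2 1.42.0, limma-voom (limma 3.58.1, quality weights), other scalings and filters, the replicate number as a block, loess offsets of span 0.3 for exon length with or without GC content, marker covariates and omitted libraries were alternatives; the offset by principal transcript length was added after the data were seen.

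Named members were the 12 with the smallest p, the 5 with the lowest log2 fold change, the 4 highest and 2 lowest in level per kilobase of exon, the 3 longest and 3 shortest, and a fixed list by role. Of each related list up to 4 genes with the smallest p were eligible; the searched factors and overlap partners were named for their part in the text. Replicate numbers did not pair the libraries (deviations of same-numbered KO and WT libraries correlated between -0.568 and -0.166). Library pairs differed by a chi-square of at least 32.4 per degree of freedom, so none was a repeat. The fit was tested on simulated counts with known changes.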

Additional observations from a re-analysis of the deposited data

Results flagged for a closer look

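In 5 of 90 groups of 4 libraries examined, 1 library stood apart from the other 3 by more than Dixon's criterion allows, a share that chance alone gives in about 1 of 20 groups. Among KO libraries, replicate 1 was high for Mrpl12 (175 CPM, the others 128 to 134), Mrpl51 (232 CPM, the others 179 to 186) and Mrps26 (53.7 CPM, the others 41.8 to 43.5). Among WT libraries, replicate 4 was low for Mrpl15 (41.8 CPM, the others 50.5 to 50.6) and replicate 3 was high for Mrpl39 (24.6 CPM, the others 22.9 to 23.1). KO replicate 1 also held the highest summed level of the 78 genes, and without it the median log2 fold change of the members was 0.35.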

How the results depend on the processing

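The number of members called by adjusted p was 0 in edgeR and under its other scalings, the stricter filter, the length offsets, the replicate block and each omission of 1 library, but 37 in DESeq2, 25 in limma-voom, 42 with the marrow covariate, 12 with the muscle covariate, 3 with no low-count filter (Mrps21, Mrpl55 and Mrpl52) and 11 without both replicates 4. Over all genes edgeR called 2, against 994, 701, 1382, 729, 71 and 458 under these settings, and the cause was not tested. Members at unadjusted p under 0.05 numbered 62 in edgeR, 38 without TMM, where the median of all genes moved to -0.11, 39 with the principal length offset, 44 with the replicate block, and 53 to 61 with 1 library omitted. The replicate block changed no call of a member by adjusted p. Over all genes it called 1, against 2 without it. The medians over all, large and small subunit members were 0.28, 0.29 and 0.25 with the exon length offset, 0.28, 0.30 and 0.27 with length and GC, and 0.25, 0.26 and 0.21 with the principal length offset; with 1 library omitted they ran from 0.35 to 0.45, 0.35 to 0.46 and 0.35 to 0.44.

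Small log2 fold changes turned negative for Mrpl39 (-0.01 with length and GC, -0.02 without TMM), Mrpl40 (-0.06 with length and GC, -0.07 with length, -0.0035 without TMM, -0.09 with principal length), Mrps10 (-0.01 without TMM, -0.02 in limma-voom, -0.04 with the muscle covariate, -0.14 with principal length, -0.03 without both replicates 4), Mrps18b (-0.05 with the muscle covariate, -0.08 with principal length, -0.03 without both replicates 4), Mrps2 (-0.01 with the muscle covariate, -0.0021 without both replicates 4) and Mrps5 (-0.07 without TMM, -0.02 in limma-voom, -0.07 with the muscle covariate, -0.06 without both replicates 4, -0.01 without KO replicate 4 and -0.01 without WT replicate 4). The other 33 named members kept a positive sign under every setting run. Omission of 1 library moved 9 named members by over 1.5 times: Mrps5 (0.03, range -0.01 to 0.06, with KO replicates 2, 3 and 4 and WT replicates 3 and 4), Mrps10 (0.09, 0.02 to 0.18, KO 2 and 4, WT 4), Mrpl39 (0.09, 0.02 to 0.18, KO 2 and 4), Mrps2 (0.10, 0.04 to 0.17, KO 4, WT 1 and 4), Mrps18b (0.14, 0.04, KO 4, and 0.07, WT 4), Mrpl40 (0.10, 0.03, KO 1), Mrps22 (0.21, 0.11, KO 3), Mrpl53 (0.32, 0.19, WT 2) and Mrpl48 (0.26, 0.17, WT 4).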
